A study of Rattus norvegicus with 6 samples.

Results

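The platelet-derived growth factor (PDGF) genes were followed here as a group of 8: the receptors Pdgfra and Pdgfrb, the ligands Pdgfa, Pdgfb, Pdgfc and Pdgfd, and the pericyte markers Cspg4 and Rgs5. They were taken by symbol from a deposited expression table of 34510 genes, and each symbol matched 1 row. The table came from poly(A) RNA sequencing of primary ventricular heart muscle cells of newborn rats (Rattus norvegicus). It held 3 libraries titled Bgal and 3 titled Trim28. Per the design text, cells were infected with Ad-Trim28, an adenovirus that carries the corepressor gene Trim28. What the Bgal cells received is not spelled out, and the labels give no dose, time, strain, sex of the pups or batch. The cell type was the same in both groups. Whether the replicates are separate cultures or litters is not stated in the labels, so each p-value measures the spread of these libraries alone, and that spread may be technical.

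PDGFs are secreted dimers of A, B, C or D chains. They draw PDGF receptor chains together at the cell surface, which switches on the receptors' tyrosine kinases and, through them, the phosphoinositide 3-kinase, phospholipase C gamma and Ras-ERK pathways. In the heart, Pdgfra is best known from fibroblasts and their precursors. Pdgfrb is best known from pericytes and vascular smooth muscle, which endothelial PDGF-B recruits to vessels.

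All 8 genes passed the filter on low values, which asked for at least 0.5 FPKM (fragments per kilobase of gene, scaled by the library's total) in at least 3 libraries. At an adjusted p of 0.05 in limma, 6 of them were higher in the Trim28 libraries, 0 were lower and 2 did not pass. An unadjusted p of 0.05 gave 0 lower genes as well, as did limma-voom, which was run on read counts recovered from the FPKM values. Over all 14808 tested genes, 20.1% rose and 21.1% fell by the same rule. The genes that rose were both receptors, the ligands Pdgfa, Pdgfc and Pdgfd, and Cspg4, while Pdgfb and Rgs5 did not pass. The median log2 difference of the 8 genes was 0.55, beside -0.02 over all tested genes. For the 6 genes that rose, every Trim28 library lay above every Bgal library, which was so for 26.0% of all tested genes, while 27.7% had every Trim28 library below every Bgal library.

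**Figure D1:**
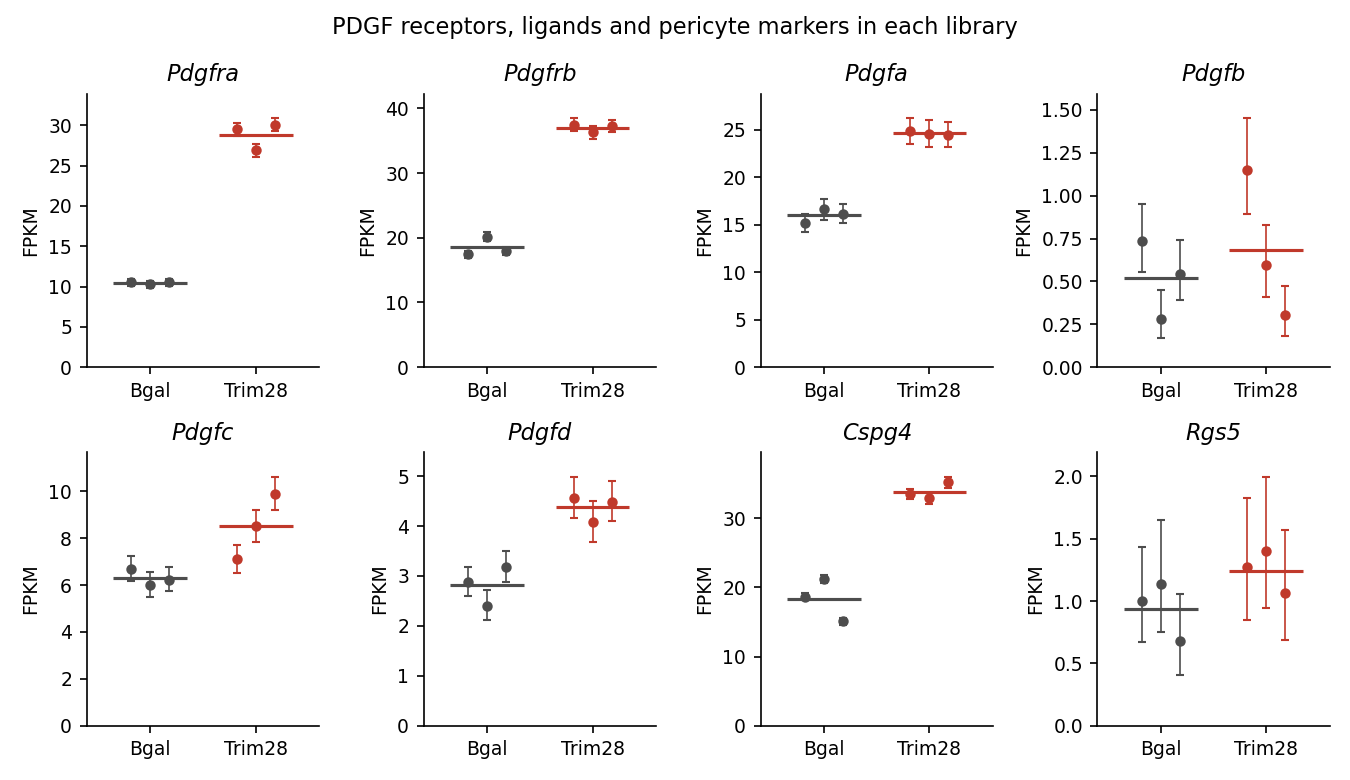
FPKM of each gene in the 3 Bgal and 3 Trim28 libraries (points in replicate order from left to right), with the group mean as a line and the 95% Poisson interval of the read count as a bar. The groups are apart for Pdgfra, Pdgfrb, Pdgfa, Pdgfc, Pdgfd and Cspg4, and overlap for Pdgfb and Rgs5.

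The libraries held 26146166 to 34593292 reads assigned to genes, and Trim28 itself stood at 77.6 to 87.8 FPKM in the Bgal libraries. It stood at 2923, 2890 and 980 FPKM in Trim28 replicates 1, 2 and 3, so that the third carried the least of the transgene's transcript. Cardiomyocyte markers fitted the cell type label, with 9 of 10 listed symbols matching exactly 1 row. Their summed level was 15700 to 16837 FPKM in the Bgal and 16014 to 17324 FPKM in the Trim28 libraries. Without Nppa, the most abundant of them, the other 8 summed to 11540 to 12546 FPKM and to 10439 to 10535 FPKM. Within that list 3 of 9 tested genes rose and 4 fell, with the light chain gene Myl2 2.78-fold and the troponin gene Tnni3 1.65-fold lower and the heavy chain gene Myh7 2.20-fold higher. Transcripts listed as markers of other cells were present as well. Summed fibroblast markers went from a range of 456 to 475 FPKM to a range of 798 to 866 FPKM, smooth muscle markers from 832 to 1091 up to 1649 to 1755 FPKM, and leukocyte and macrophage markers from 31.3 to 32.6 up to 73.5 to 75.3 FPKM. Single genes weighed heavily in these sums: Acta2 made up 67.8% to 78.9% of the smooth muscle sum, and without it the other 7 genes went from 267 to 326 up to 362 to 372 FPKM. Without Col1a1 the other 13 fibroblast markers went from 267 to 274 up to 418 to 471 FPKM, and without Lyz2 the other 10 leukocyte and macrophage markers from 17.8 to 19.0 up to 38.3 to 40.5 FPKM. More cells of a type and more RNA per cell cannot be told apart in such bulk samples. Which cells these transcripts came from, the heart muscle cells included, was not tested.

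The promoters of 3 of the genes that rose are printed beside that of Pdgfb, which did not pass. Windows of 300 bases, from 250 bases before to 50 bases after the gene's start, came from RefSeq on the GRCr8 build and matched 7 of the 8 genes, all but Pdgfrb. They are written 5′ to 3′ on the gene's strand. Capitals mark matches on either strand to the GC box (GGGCGG), the CCAAT box (CCAAT), the TATA box (TATAAA), the AP-1 site (TGANTCA) and the TEAD site (GGAATG), none of which overlapped in these windows.
Pdgfra, chr14:33408467-33408766, minus strand: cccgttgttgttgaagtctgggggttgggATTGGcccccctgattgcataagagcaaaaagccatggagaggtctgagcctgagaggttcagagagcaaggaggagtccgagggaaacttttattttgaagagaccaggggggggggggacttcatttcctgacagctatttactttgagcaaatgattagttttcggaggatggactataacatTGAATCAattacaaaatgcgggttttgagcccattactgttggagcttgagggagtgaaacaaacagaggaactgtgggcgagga
Cspg4, chr8:66160692-66160991, plus strand: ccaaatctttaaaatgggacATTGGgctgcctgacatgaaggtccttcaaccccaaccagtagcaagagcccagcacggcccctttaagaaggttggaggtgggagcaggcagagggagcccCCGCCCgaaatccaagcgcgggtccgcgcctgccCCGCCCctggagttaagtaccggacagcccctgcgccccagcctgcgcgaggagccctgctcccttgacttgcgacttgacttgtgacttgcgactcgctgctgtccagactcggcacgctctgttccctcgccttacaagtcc
Pdgfa, chr12:20759116-20759415, plus strand: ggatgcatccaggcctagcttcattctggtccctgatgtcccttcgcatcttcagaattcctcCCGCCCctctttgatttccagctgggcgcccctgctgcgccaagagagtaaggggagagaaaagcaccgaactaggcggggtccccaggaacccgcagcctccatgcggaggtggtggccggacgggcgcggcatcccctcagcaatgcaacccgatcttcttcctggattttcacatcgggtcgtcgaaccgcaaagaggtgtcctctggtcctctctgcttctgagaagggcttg
Pdgfb, chr7:113438294-113438593, minus strand: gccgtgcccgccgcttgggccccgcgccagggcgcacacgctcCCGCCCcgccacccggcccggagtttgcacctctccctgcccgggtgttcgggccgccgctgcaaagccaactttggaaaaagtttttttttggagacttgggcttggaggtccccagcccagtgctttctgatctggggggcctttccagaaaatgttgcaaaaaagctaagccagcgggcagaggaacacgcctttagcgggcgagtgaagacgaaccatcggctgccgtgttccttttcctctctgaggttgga

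The Pdgfra window, with 48% G and C, held a CCAAT box that began 221 bases and an AP-1 site that began 35 bases before the start, and no GC box. The other windows shown were richer in G and C, at 60% for Pdgfa and 62% for Cspg4 and Pdgfb, beside a median of 51.7% over 33469 promoters. GC boxes began 128 and 94 bases before the start of Cspg4, 187 bases before that of Pdgfa and 207 bases before that of Pdgfb. Cspg4 also held a CCAAT box. Of the 7 matched genes, 5 held a GC box (Cspg4, Pdgfa, Pdgfb, Pdgfd and Rgs5), beside 33.1% of all promoters, so the box occurred in genes that rose and in both genes that did not pass. The CCAAT box stood in 2 of the 7 and in 37.5% of all promoters, and the AP-1 site in 1 of the 7 and in 7.33%. The TATA box (14.2% of all promoters) and the TEAD site (14.2%) stood in 0 of the 7. Such a match is only a description of the letters in this window.

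Pdgfra showed the largest rise of the group. Its gene (ENSRNOG00000002244, chromosome 14, 35527927 to 35581031, minus strand, in the deposited table's coordinates, their build not given in the sources used here) encodes the receptor chain that binds PDGF-A, PDGF-B and PDGF-C chains. It stood at 10.5, 10.3 and 10.5 FPKM in Bgal replicates 1 to 3 and at 29.5, 26.9 and 30.1 FPKM in Trim28 replicates 1 to 3. The Bgal libraries were nearly alike, at 10.4 ± 0.144 FPKM (SD, n = 3), and the Trim28 libraries, at 28.8 ± 1.69 FPKM (SD, n = 3), lay far above them. That was a 2.76-fold rise of the mean, read from 1943 to 2440 reads per Bgal library and 4596 to 5618 per Trim28 library. On the log2(FPKM + 1) scale the difference was 1.38 with an SE of 0.06 (limma adjusted p = 1.8e-05), the 74th largest rise of the 14808 tested genes. It lay above the 99th percentile of all tested genes, which was 1.17.

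Pdgfrb, whose product binds PDGF-B and PDGF-D, rose as well (ENSRNOG00000018461, chromosome 18, 56364620 to 56406381, plus strand). Its values were 17.4, 20.1 and 18.0 FPKM in the Bgal libraries and 37.5, 36.3 and 37.3 FPKM in the Trim28 libraries. The Trim28 libraries, at 37.0 ± 0.634 FPKM, were closer to each other than the Bgal libraries, at 18.5 ± 1.43 FPKM (SD, n = 3 each), and the groups did not overlap. The rise was 2.00-fold, with a log2 difference of 0.96 (95% interval 0.82 to 1.11, limma adjusted p = 8.27e-05).

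**Figure D2:**
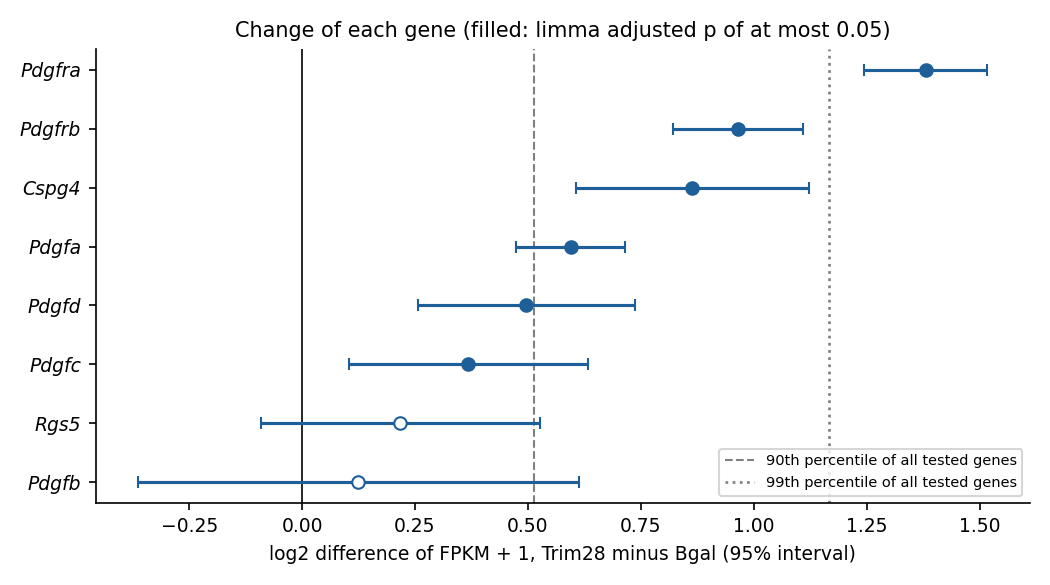
Log2 difference of FPKM + 1 between the Trim28 and Bgal libraries with its 95% interval from limma, filled where the adjusted p is at most 0.05. Pdgfra, at 1.38, lies beyond the 99th percentile of all tested genes (1.17, dotted), and Pdgfrb, Cspg4 and Pdgfa lie beyond the 90th (0.51, dashed).

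The receptors were also compared with each other. Within a library, where the scaling cancels, the FPKM of Pdgfra was 0.604, 0.510 and 0.585 times that of Pdgfrb in the Bgal libraries and 0.787, 0.741 and 0.807 times in the Trim28 libraries. Pdgfrb thus had the higher level per gene length in all 6 libraries, and the ratio was higher in all 3 Trim28 libraries than in any Bgal library. The log2 ratio went from -0.82 ± 0.13 to -0.36 ± 0.06 (SD, n = 3 each), a difference of 0.46 (two-sided exact permutation p = 0.1, which no split of 3 and 3 can go below). Adjusted over both ratios compared here, that p was 0.2.

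Summed markers of fibroblasts, of smooth muscle, and of leukocytes and macrophages moved in the same libraries. Per 100 FPKM of summed fibroblast markers, Pdgfra stood at 2.31, 2.16 and 2.29 FPKM in the Bgal and 3.57, 3.37 and 3.47 FPKM in the Trim28 libraries, and without Col1a1 at 3.84 to 3.85 and 6.38 to 6.74 FPKM. By either sum Pdgfra rose by more than the list. Pdgfrb stood at 3.82 to 4.24 FPKM and 4.30 to 4.55 FPKM per 100 FPKM of the same list, or at 6.36 to 7.55 and 7.91 to 8.69 FPKM without Col1a1. Per 100 FPKM of summed smooth muscle markers, Pdgfrb stood at 1.74 to 2.10 FPKM and 2.11 to 2.26 FPKM, but without Acta2 at 6.18 to 6.52 and 10.01 to 10.19 FPKM. Per 100 FPKM of the leukocyte and macrophage list Pdgfra stood at 31.8 to 33.6 and then 35.9 to 40.9 FPKM, and Pdgfrb at 55.2 to 62.3 and then 48.4 to 50.7 FPKM. Without Lyz2 Pdgfra stood at 53.9 to 59.1 and 66.4 to 78.4 FPKM, and Pdgfrb at 97.8 to 105.7 and 89.6 to 97.2 FPKM. The part of these cells in the rise of either receptor was not tested.

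The receptor genes stand next to relatives in the genome. Csf1r, the receptor of macrophage colony-stimulating factor and a relative of the PDGF receptors, begins 8107 bases after the end of Pdgfrb on the same strand. It rose 2.48-fold, from 2.04, 1.83 and 1.64 FPKM to 4.82, 4.65 and 4.16 FPKM (limma adjusted p = 0.000394). Kit, the receptor of stem cell factor, lies 378317 bases from Pdgfra on the same strand. Its values of 5.76, 5.44 and 7.02 FPKM and 5.27, 5.27 and 5.60 FPKM overlapped, and it did not pass (limma adjusted p = 0.282).

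Among the ligands, Pdgfa had the highest level in every library. Pdgfa encodes the A chain, a ligand of the alpha receptor (ENSRNOG00000001312, chromosome 12, 17734133 to 17755285). It stood at 15.2, 16.6 and 16.1 FPKM in the Bgal and 24.8, 24.5 and 24.5 FPKM in the Trim28 libraries. The Trim28 libraries were within their counting error of each other, and all lay above the Bgal libraries. The mean rose 1.54-fold, from 16.0 ± 0.725 to 24.6 ± 0.169 FPKM (SD, n = 3 each), with a log2 difference of 0.60 and a limma adjusted p of 0.000213.

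Pdgfc and Pdgfd, whose chains must be cut by proteases before they bind, rose too. On the log2(FPKM + 1) scale both differences were smaller than that of Pdgfa, but with a pseudocount of 0.1 Pdgfd and Pdgfa were level at 0.62. Pdgfd (ENSRNOG00000029148, chromosome 8, 4440876 to 4669014), a ligand of the beta receptor, had 2.88, 2.41 and 3.18 FPKM in the Bgal and 4.56, 4.08 and 4.49 FPKM in the Trim28 libraries. It rose 1.55-fold with no overlap between the groups (log2 difference 0.50, 95% interval 0.26 to 0.74, limma adjusted p = 0.00743). Pdgfc (ENSRNOG00000010695, chromosome 2, 179952227 to 180128283), a ligand of the alpha receptor, had 6.70, 6.01 and 6.24 FPKM in the Bgal libraries. In the Trim28 libraries it had 7.10, 8.52 and 9.89 FPKM, a spread wider than counting error, since the 95% Poisson interval of replicate 1 ended at 7.73 FPKM and that of replicate 3 began at 9.21 FPKM. The highest value stood in the library with the least Trim28, replicate 3.

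The call of Pdgfc was the least firm of the 6. Its log2 difference was 0.37 (95% interval 0.10 to 0.63, limma adjusted p = 0.0345). It was lost without Bgal replicate 1 (adjusted p = 0.0592), 2 (0.0936) or 3 (0.0848) and without Trim28 replicate 2 (0.0857) or 3 (0.078), although it held without Trim28 replicate 1 (0.0119). It was lost as well with no filter on low values (0.0712), and over all alternatives the adjusted p ranged from 0.0119 to 0.0936.

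Pdgfb, the B chain that binds both receptors, was the lowest of the ligands (ENSRNOG00000017197, chromosome 7, 121214628 to 121232741, minus strand). It had 0.733, 0.284 and 0.546 FPKM in the Bgal and 1.15, 0.593 and 0.303 FPKM in the Trim28 libraries, from 57, 18 and 41 and from 70, 34 and 19 reads. Both groups held a high and a low library, and the groups overlapped. Within the Trim28 group the values differed beyond counting error, with a 95% Poisson interval of 0.895 to 1.45 FPKM in replicate 1 and 0.182 to 0.473 FPKM in replicate 3. The log2 difference of 0.12 had a 95% interval of -0.36 to 0.61 (limma adjusted p = 0.663), and without Trim28 replicate 1 its sign turned (-0.067).

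Summed over the 4 ligands, the level was 25.5, 25.3 and 26.1 FPKM in the Bgal and 37.6, 37.7 and 39.2 FPKM in the Trim28 libraries. The makeup of that sum overlapped between the groups for every ligand. Pdgfa made up 59.5% to 65.6% of it in the Bgal and 62.5% to 65.9% in the Trim28 libraries, Pdgfc 23.8% to 26.3% and 18.9% to 25.3%, Pdgfd 9.52% to 12.2% and 10.8% to 12.1%, and Pdgfb 1.12% to 2.88% and 0.774% to 3.05%. The log2 ratio of Pdgfa to Pdgfc, the alpha receptor's ligands with the higher levels, was 1.34 ± 0.15 and 1.55 ± 0.25 (SD, n = 3 each). That difference of 0.21 was within the spread of the libraries (two-sided exact permutation p = 0.4, with 0.1 the smallest possible).

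**Figure D3:**
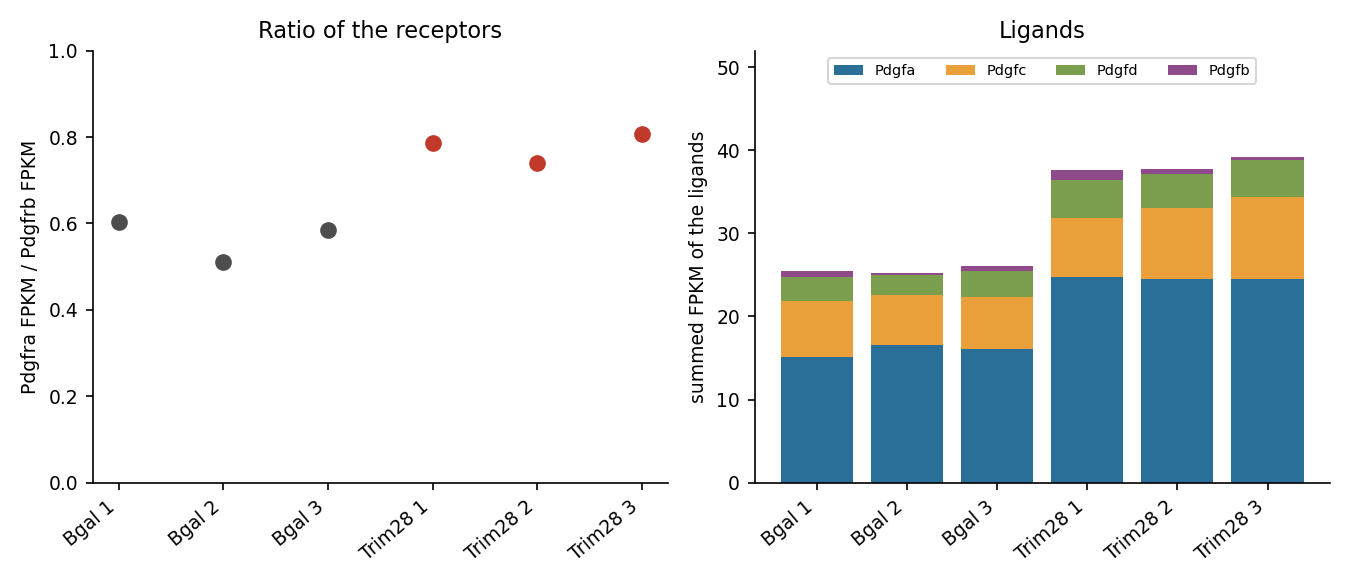
Left, FPKM of Pdgfra divided by that of Pdgfrb in each library (Bgal grey, Trim28 red). Right, FPKM of the 4 ligands stacked by library; the ratio lies at 0.510 to 0.604 in the Bgal and 0.741 to 0.807 in the Trim28 libraries, and the summed ligands at 25.3 to 26.1 and 37.6 to 39.2 FPKM.

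Of the pericyte markers Cspg4 rose and Rgs5 did not pass. Cspg4 encodes NG2, a chondroitin sulfate proteoglycan of the pericyte surface (ENSRNOG00000017208, chromosome 8, 61532465 to 61567510). It had 18.7, 21.2 and 15.1 FPKM in the Bgal and 33.5, 32.9 and 35.2 FPKM in the Trim28 libraries. The Bgal libraries spread more widely, at 18.3 ± 3.08 FPKM against 33.9 ± 1.21 FPKM (SD, n = 3 each), with no overlap. It rose 1.85-fold, with a log2 difference of 0.86 and a limma adjusted p of 0.00097. Per 100 FPKM of summed smooth muscle markers it stood at 1.46 to 2.24 FPKM in the Bgal and 1.91 to 2.13 FPKM in the Trim28 libraries, which overlapped. Without Acta2 in the sum it stood at 5.29 to 6.98 and 9.01 to 9.63 FPKM, which did not overlap.

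Rgs5, which speeds up GTP hydrolysis by G-protein alpha subunits and marks pericytes in many tissues, was read from few fragments (ENSRNOG00000002730, chromosome 13, 87966758 to 88003035). Its values were 0.997, 1.14 and 0.676 FPKM in the Bgal and 1.27, 1.40 and 1.06 FPKM in the Trim28 libraries, from 19 to 30 reads on a length of 818 bases. The groups overlapped, as did the 95% Poisson intervals of all 6 libraries. The log2 difference of 0.22 had a 95% interval of -0.09 to 0.53 (limma adjusted p = 0.226). Its neighbour Rgs4, 51782 bases further along on the opposite strand, rose 1.67-fold, from 2.15 ± 0.118 to 3.60 ± 0.536 FPKM (SD, n = 3 each, limma adjusted p = 0.00741).

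In level per gene length, the order in the Bgal libraries was Pdgfrb, Cspg4, Pdgfa, Pdgfra, Pdgfc, Pdgfd, Rgs5 and Pdgfb. The ranges of Pdgfrb and Cspg4 overlapped there, as did those of Cspg4 and Pdgfa and those of Rgs5 and Pdgfb. In the Trim28 libraries Pdgfra stood above Pdgfa, with 26.9 to 30.1 against 24.5 to 24.8 FPKM, while the rest of the order was the same. Only Rgs5 and Pdgfb, at the bottom, overlapped there among neighbours in the order.

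A wider list of pericyte markers was mixed. Of 15 symbols 14 matched exactly 1 row and 11 were tested, with 7 higher, 2 lower and 2 that did not pass (median log2 difference 0.46). With no filter on low values, 7 of 14 were higher and 1 lower, with a median of 0.21. The 2 lower genes of the filtered list were Abcc9 and Heyl (log2 difference -0.45 for Heyl, limma adjusted p = 0.0232). Anpep, an aminopeptidase, rose 1.70-fold, from 7.56 ± 0.221 to 12.9 ± 1.21 FPKM, and the Notch receptor gene Notch3 rose 1.83-fold, from 1.87 ± 0.163 to 3.42 ± 0.36 FPKM. Abcc9, a subunit of ATP-sensitive potassium channels that heart muscle also expresses, fell 1.97-fold, from 45.3, 38.9 and 43.4 FPKM to 21.8, 21.0 and 21.8 FPKM (limma adjusted p = 9.42e-05). Kcnj8, the pore subunit that pairs with Abcc9, was among those that rose, at 0.403 ± 0.059 and 0.935 ± 0.068 FPKM, and it met the filter on account of its Trim28 values only.

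The summed level of that list, 224 to 246 FPKM in the Bgal and 223 to 244 FPKM in the Trim28 libraries, overlapped. Art3 and Abcc9 made up 75.5% to 84.3% of it, and the 12 other genes summed to 38.6 to 43.1 and to 52.5 to 59.8 FPKM. Several genes that define pericytes elsewhere were at or near 0. Cd248 reached at most 0.0595 FPKM, Vtn 0.0166 FPKM and Ndufa4l2 0.146 FPKM in any library, and Higd1b lay at 0.402 to 0.764 FPKM in the Bgal and 0.389 to 0.914 FPKM in the Trim28 libraries. Cspg4 and Rgs5 are therefore described here by name, and no pericytes are named from them.

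Markers of the remaining cell types stood beside these values as follows. Of 14 fibroblast markers 10 rose and 0 fell, with a median log2 difference of 0.68, among them Dcn, a matrix proteoglycan, 2.24-fold and the collagen genes Col1a1 and Col3a1 2.02-fold and 1.61-fold. Of 8 smooth muscle markers 6 rose and 1 fell: Acta2 and Cnn1, of the contractile apparatus, rose 1.94-fold and 1.96-fold, and Synpo2, an actin-binding protein of muscle, fell 1.24-fold. All 8 tested leukocyte and macrophage markers of 12 listed rose, with Lyz2, Cd14 and Cd68 up 2.55-fold, 2.45-fold and 1.96-fold. Of these 8, Adgre1 met the filter on account of its Trim28 values only, and Csf1r is the neighbour of Pdgfrb described above.

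Endothelial markers, the usual source of PDGF-B, were low, with a sum of 13.6 to 14.0 FPKM in the Bgal and 12.7 to 14.3 FPKM in the Trim28 libraries, or 5.26 to 6.16 and 6.82 to 7.93 FPKM without Kdr. Cldn5 was listed at 0 in every library and Cdh5 reached at most 0.573 FPKM. Of 12 genes only 4 were tested: Tek, the angiopoietin receptor, rose 1.73-fold, Kdr, a receptor of VEGF, fell 1.33-fold, and Esam, at 0.514 ± 0.0959 and 0.887 ± 0.323 FPKM, and Egfl7 (limma adjusted p = 0.264) did not pass. Of 6 listed genes of platelets, another source of PDGF, only Pf4 passed the filter, and it rose 3.15-fold. Ppbp, Gp1bb, Gp9 and Gp6 were under 0.5 FPKM in all 6 libraries. Of 7 glial markers 2 were tested and 0 passed in limma, with Erbb3 at 0.41 ± 0.0973 and 0.694 ± 0.0773 FPKM and S100b at 0.699 ± 0.42 and 0.757 ± 0.241 FPKM (SD, n = 3 each). At an unadjusted p of 0.05 in limma 0 of the 2 passed too, while 1 of the 2, Erbb3, passed in limma-voom (adjusted p = 0.0117) and in limma without a trend (0.0298).

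**Figure D4:**
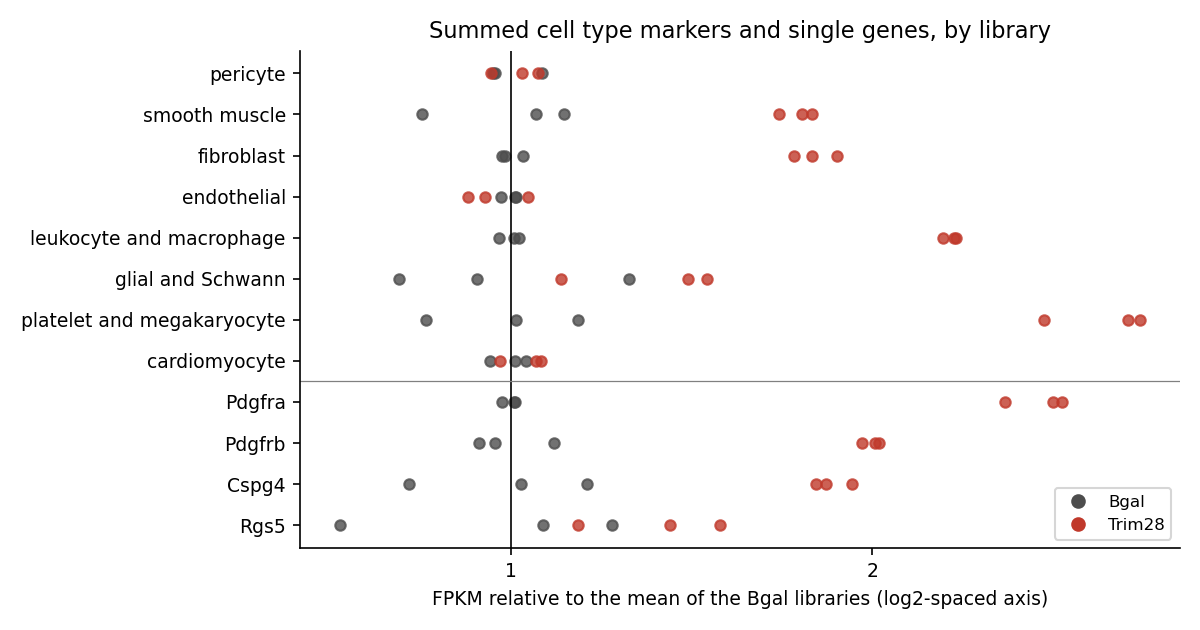
Summed FPKM of each marker list, and FPKM of Pdgfra, Pdgfrb, Cspg4 and Rgs5, in each library relative to the mean of the 3 Bgal libraries, on a log2-spaced axis. Trim28 libraries (red) lie to the right of all Bgal libraries (grey) for fibroblast, smooth muscle, leukocyte and platelet lists and for Pdgfra, Pdgfrb and Cspg4. Pf4 alone made up 96.7% to 98.9% of the platelet sum.

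Genes that act on the ligands or beside the receptors rose in part. Of 10 such genes 5 rose and 1 fell, with a median log2 difference of 0.27. Lrp1, an endocytic receptor that partners with Pdgfrb, rose 1.91-fold, from 17.4 ± 0.694 to 33.1 ± 0.907 FPKM (SD, n = 3 each, limma adjusted p = 5.93e-05). Sparc, a matrix protein that binds PDGF-B, rose 1.29-fold, and the proteoglycan gene Sdc4 rose 1.31-fold.

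Downstream of the receptors the picture was mixed. Of 18 adaptor and kinase genes 4 were higher, 4 lower and 10 did not pass, with a median log2 difference of 0.06. The docking protein gene Gab1 rose from 33.4 ± 1.20 to 49.9 ± 2.61 FPKM, the adaptor gene Shc1 from 19.4 ± 1.15 to 26.0 ± 0.655 FPKM, and Pik3r1, the regulatory subunit of phosphoinositide 3-kinase, from 11.7 ± 0.2 to 15.6 ± 0.587 FPKM. Their log2 differences of 0.57, 0.40 and 0.39 passed in limma, at adjusted p-values of 0.000294 for Gab1 and 0.00146 for the others.

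Phosphatases and other regulators of the receptors moved in both directions, with 5 of 10 higher and 2 lower, or 2 higher and 2 lower without Trim28 replicate 3. The ubiquitin ligase genes Cbl and Cblb did not pass (limma adjusted p = 0.316 and 0.693). Ptpn2 and Ptpn1, tyrosine phosphatases that act on receptor kinases, fell 1.44-fold and 1.28-fold, from 25.4 ± 0.714 to 17.7 ± 0.291 FPKM and from 27.5 ± 2.24 to 21.6 ± 1.46 FPKM. Spry2, an inhibitor of ERK signalling, rose from 38.9 ± 2.15 to 51.7 ± 4.58 FPKM (limma adjusted p = 0.00418).

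Early response genes, which PDGF and many other stimuli induce, rose in part. Of 12 listed 11 were tested, of which 7 rose and 1 fell, with a median of 0.44. Leaving out 1 library gave from 5 (Trim28 replicate 1 left out) to 9 (Bgal replicate 2 left out) that rose. Jun was the gene that fell (log2 difference -0.31, limma adjusted p = 0.0295), and Fos, Egr1 and Ier2 did not pass (limma adjusted p = 0.240, 0.0511 and 0.123). Ier3, an early gene of growth factor signalling, rose 1.83-fold (24.9 ± 1.61 to 45.6 ± 3.72 FPKM), the chemokine gene Ccl2 1.71-fold and the AP-1 subunit gene Junb 1.42-fold. By contrast, of 8 proliferation genes 6 fell and 0 rose, with a median of -0.55: Birc5, Mki67 and Ccnb1 fell 3.24-fold, 1.84-fold and 1.83-fold.

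**Figure D5:**
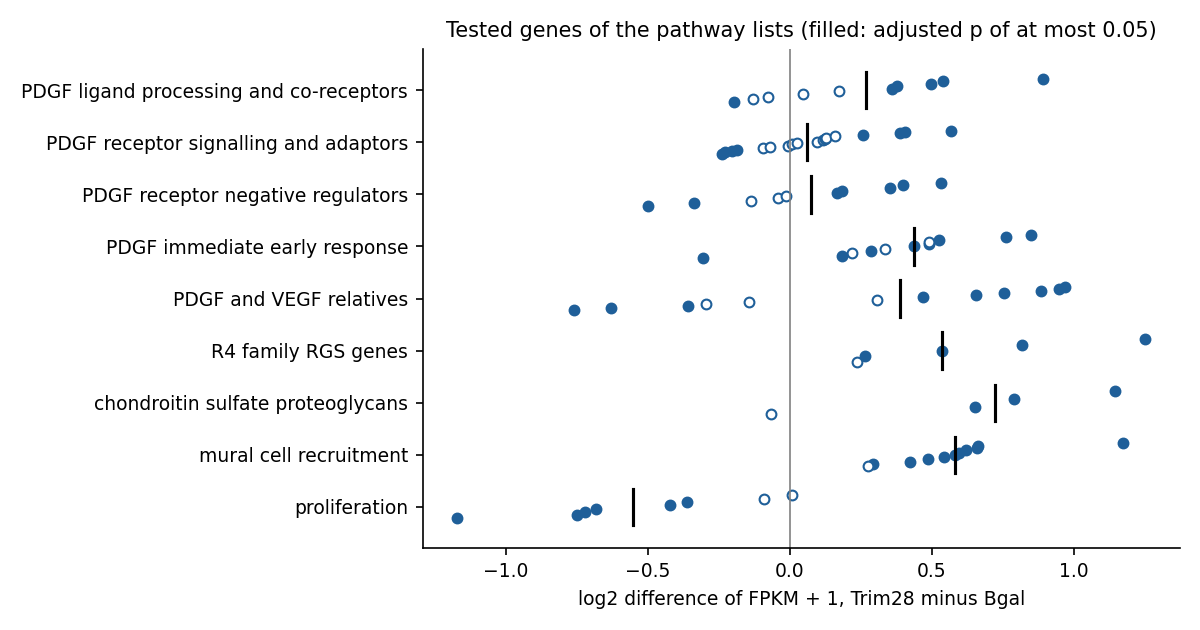
Log2 difference of FPKM + 1 (Trim28 minus Bgal) of each tested gene in the pathway lists, filled where the limma adjusted p is at most 0.05, with the list's median as a vertical line. Medians over the tested genes run from -0.55 for proliferation genes to 0.72 for chondroitin sulfate proteoglycans, of which 4 of 7 were tested. With no filter on low values the median of the 7 proteoglycans was 0.12.

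Relatives of the PDGF and VEGF family moved both ways, with 6 of 12 tested genes higher and 3 lower. Csf1, the ligand of Csf1r, rose 1.97-fold, from 23.8 ± 1.40 to 46.9 ± 1.46 FPKM. Vegfa and Vegfb, growth factors of endothelium, fell 1.70-fold and 1.56-fold, from 209.9 ± 10.9 to 123 ± 5.58 FPKM and from 72.7 ± 4.23 to 46.7 ± 1.88 FPKM (SD, n = 3 each). Vegfc and Vegfd, of the same family, rose by 0.66 and 0.75 on the log2 scale (limma adjusted p = 0.00208 and 0.000397).

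Most tested genes of the RGS group of Rgs5, and of the chondroitin sulfate proteoglycans listed beside Cspg4, rose. Of 9 genes of the R4 group of RGS proteins besides Rgs5, 5 were tested, of which 4 rose and Rgs1 (limma adjusted p = 0.287) did not pass. Rgs2 went from 43.7, 49.4 and 49.4 FPKM to 127, 134 and 87.6 FPKM, and Rgs16 from 1.22 ± 0.0908 to 2.95 ± 0.719 FPKM. Rgs2 was lowest, among the Trim28 libraries, in replicate 3. Of 7 proteoglycans listed beside Cspg4, 4 were tested. Cspg5 (limma adjusted p = 0.760) did not pass, and 3 rose, which were Dcn (counted among the fibroblast markers as well), Bgn (1.73-fold) and Vcan (1.62-fold). Of 12 genes known for drawing mural cells to vessels 11 were tested and 10 rose, with 0 lower and a median of 0.58, led by the chemokine gene Cxcl12, from 3.27 ± 0.0423 to 8.65 ± 0.569 FPKM. Hbegf and Tgfb1, growth factors of the same list, rose as well, by 0.66 and 0.54 on the log2 scale.

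Each gene's profile was compared with those of tested genes outside the group. Rows with only a provisional label, such as those beginning with LOC, RGD or AABR, were left out. The measure was the root mean square difference, over the 6 libraries, of log2(FPKM + 1) after subtracting the gene's Bgal mean. The counts of genes within a distance cover that set only. Nearest to Pdgfra were Olr1, at 0.053, and Lyz2, at 0.082, and 9 genes lay within 0.1. Nearest to Pdgfrb were Ccdc80 (0.029) and Col1a1 (0.036), with 93 genes within 0.1. Nearest to Cspg4 were Slc1a5 (0.047) and Ptpn14 (0.048), with 18 genes within 0.1. The ligands lay nearest to Rps16 and Ptpn6 (Pdgfa), Prps2 and Eml3 (Pdgfc), Npas1 and Lpl (Pdgfd), and Trim34 and Emb (Pdgfb), and Rgs5 to Rps6kb2 and Fam53b. These distances describe the libraries and carry no test.

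The rows of Pdgfra, Pdgfc and Pdgfd overlap others in the table, and the strand setting of the counting was not given in the sources used here. Ddi1, a pseudogene on the strand opposite Pdgfd, reached at most 0.124 FPKM. RF00066, a small RNA gene opposite Pdgfc, reached at most 0.615 FPKM, and AABR07014881.1, a microRNA gene on the strand of Pdgfra, had 1.02 FPKM in 1 library and 0 in the others.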

How the data were processed

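RNA of 3 Bgal and 3 Trim28 libraries was measured, grouped by their titles. Poly(A) libraries marked with dUTP were sequenced from both ends, per the labels' protocols. The authors deposited FPKM values, per the file headers, for 34510 genes and 1 column per library, with 0 columns of other samples. HISAT2 2.0.5 and DESeq2 are named, with no role, per the submitters' processing notes. A counting tool and a genome build were not given in the sources used here. FPKM is scaled by gene length and library total, so abundant transcripts lower all other values.

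Read counts were recovered from FPKM times gene length, which rose in equal steps within a library (100% of values above 0 were whole within 0.01). Poisson intervals (exact, 95%) cover counting error only. No library was a copy of another (chi-square per degree of freedom within groups 6.78 to 18.1).

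Values were tested as log2(FPKM + 1), which understates changes of low genes, with limma 3.58.1 (R 4.3.3, intensity trend), two-sided, adjusted by Benjamini-Hochberg over 14808 genes (0.5 FPKM or more in 3 or more libraries). The model was tested on simulated data. On the recovered counts, limma-voom passed 6503 genes, against 6097. Other alternatives changed the pseudocount, filter, scaling or trend, left out each library, or added the replicate number as a block. Ratios used exact permutation tests (scipy 1.17.1). Folds are ratios of mean FPKM. The genes and lists were chosen with earlier results of these data known. Named were the 8 genes, Trim28 and up to 3 tested genes of each list with the smallest p-values. Also named, for each of the 8 genes, were the 2 with the nearest profile among the genes compared. Csf1r, Kit, Kcnj8, Heyl, Adgre1, Egfl7, Rgs1, Cspg5, Cbl, Cblb, Jun, Fos, Egr1, Ier2, Vegfc and Vegfd were named after their values were seen. So were the genes of overlapping rows and markers given for being near 0 or high. A further gene of the glial marker list is not reported here. Comparisons with summed markers, and sums without a list's most abundant gene, were also added then.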

Additional observations from a re-analysis of the deposited data

How the results depend on the processing

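Of the 8 genes, 6 passed under the other pseudocount, the 2 FPKM filter, each other scaling, no trend and limma-voom, and 5 with no filter, where Pdgfc was lost; the filter of 2 FPKM left Pdgfb and Rgs5 untested. Without 1 library, 5 to 6 of the 8 passed, and 4783 to 5643 of all genes against 6097. Pdgfra, Pdgfrb, Pdgfa, Pdgfd and Cspg4 passed in all 15 alternatives. The log2 difference of Pdgfra ranged from 1.35 to 1.46 (limma-voom included) and that of Pdgfrb from 0.92 to 1.02. A scaling without the reads of Trim28, chosen after seeing the data, gave 6 and 6095. Correlations of same-numbered deviations were -0.0164, 0.134 and 0.00915, and those of differently numbered ones -0.0899 to 0.0839. Deviations sum to 0 within a group, so this check cannot decide whether the numbers pair the samples. With the replicate block, 5 of the 8 and 5666 genes passed, and Pdgfc had an adjusted p of 0.0555; the ratio of the receptors differed by 0.46 (p = 0.25, exact sign flips, the smallest that 3 pairs allow) and that of Pdgfa to Pdgfc by 0.21 (p = 0.75). Without 1 library, these differences were 0.39 to 0.51 and 0.079 to 0.33.

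Over 73 of the named genes and their alternatives, 1065 of 1086 values kept direction and side of the threshold. The call was lost in 12 and gained in 5, and 4 turned sign, all 4 in genes that did not pass. Without 1 library, log2 differences ran from -0.067 to 0.29 for Pdgfb and from -0.052 to 0.29 for Emb (both lowest without Trim28 replicate 1), and from -0.12 to 0.24 for S100b (-0.12 without Bgal replicate 2 and -0.0073 without Trim28 replicate 3). The cause was not tested. Rgs5 and Pdgfb had the fewest reads, 18 to 70 per library, and whether depth set their calls was not tested.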
